A study of Homo sapiens with 6 samples.

Results

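Cholesterol and fatty acid synthesis genes were compared between Huh7 cells that carried a VersicanV1 knockdown lentivirus (labelled sh2) and Huh7 cells that carried a control lentivirus (labelled shNC). Huh7 is an established human liver cancer line. The set held 42 genes picked by symbol, of 23344 genes in the deposited table. Of these, 26 act in sterol sensing, transport and synthesis, and 16 in the synthesis of fatty acids and triglycerides. There were 3 libraries per group. Both groups had been exposed to lentivirus made in 293T cells, and all knockdown libraries carry one shRNA name, sh2. Nothing in the labels ties replicates to separate cultures, and the p-values therefore cover the spread among these libraries alone, which may be technical. Expression values are treated as FPKM (fragments normalised to transcript length and library size), although the table does not name its unit, and read totals are unknown.

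Cells make cholesterol from acetyl-CoA through mevalonate, squalene and lanosterol, and fatty acids from the same acetyl-CoA through malonyl-CoA and palmitate. Both routes are under the control of SREBP transcription factors, membrane proteins of the endoplasmic reticulum that SCAP escorts to the Golgi for cleavage when sterols are scarce and that INSIG proteins retain when sterols are plentiful. SREBP-2, the product of SREBF2, acts mainly on sterol genes, and the SREBP-1c form made from SREBF1 acts mainly on fatty acid genes. The liver is a main site of both routes.

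VCAN, the gene of the versican proteoglycan, was at 1.90, 1.74 and 1.64 FPKM in knockdown replicates 1, 2 and 3, against 4.79, 6.24 and 8.10 FPKM in control replicates 1, 2 and 3. It was lower in each knockdown library than in each control library, with a log2 fold change of -1.39 (SE 0.19, limma adjusted p = 0.0103). Without control replicate 2 the adjusted p was 0.0537. Values are per gene, and the V1 isoform is not separated from the other isoforms. All 10 hepatocyte markers examined were present, with a summed level of 8805 to 10664 FPKM in knockdown and 7341 to 9360 FPKM in control libraries. Of these 10 markers, 3 rose and 1 fell (40%), where 8.08% of all genes tested were called. The 13 mitochondrially encoded genes took 23.8% to 31.2% of the summed values in knockdown and 16.0% to 19.2% in control libraries. The summed level of 11 leukocyte markers was 109 to 217 FPKM in knockdown and 75.7 to 92.1 FPKM in control libraries. CD14 and LYZ made up most of this sum in each library. LYZ rose (limma adjusted p = 0.0277), and CD14 overlapped between the groups. S100A8 was at 17.9 FPKM in knockdown replicate 2 and listed at 0 in the other libraries. PTPRC, NKG7 and HLA-DRA were at 1.96, 5.54 and 11.7 FPKM in knockdown replicate 2, and at 0.16 FPKM or less in the other libraries. S100A9 and ITGAM were higher in each knockdown library than in each control library. The results were also computed after rescaling without the mitochondrially encoded genes, and the part of the leukocyte markers was not tested.

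All 42 genes passed the filter on low values, which kept 13696 genes with at least 1 FPKM in at least 3 libraries. Of the 26 sterol genes, SREBF2 and NPC1L1 rose and TMEM97 fell in knockdown libraries. Of the 16 fatty acid and triglyceride genes, 0 rose and 0 fell by limma, and 3 had an unadjusted p below 0.05, against 29.3% of all genes tested. "Rose" and "fell" are used for an adjusted p below 0.05 over all genes tested, and fold changes are on the log2(FPKM + 1) scale, sh2 over shNC. Over all genes tested, 8.08% were called (4.15% higher and 3.94% lower in knockdown), so 3 of 26 sterol genes (11.5%) is close to that background. The median log2 fold change was 0.08 for the sterol genes, -0.25 for the fatty acid and triglyceride genes and -0.03 for all genes tested. After the rescaling these medians were 0.19, -0.15 and 0.06. The groups were fully apart for 11 of 26 sterol genes and 5 of 16 fatty acid and triglyceride genes, against a background of 33.1% of all genes tested.

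**Figure D1:**
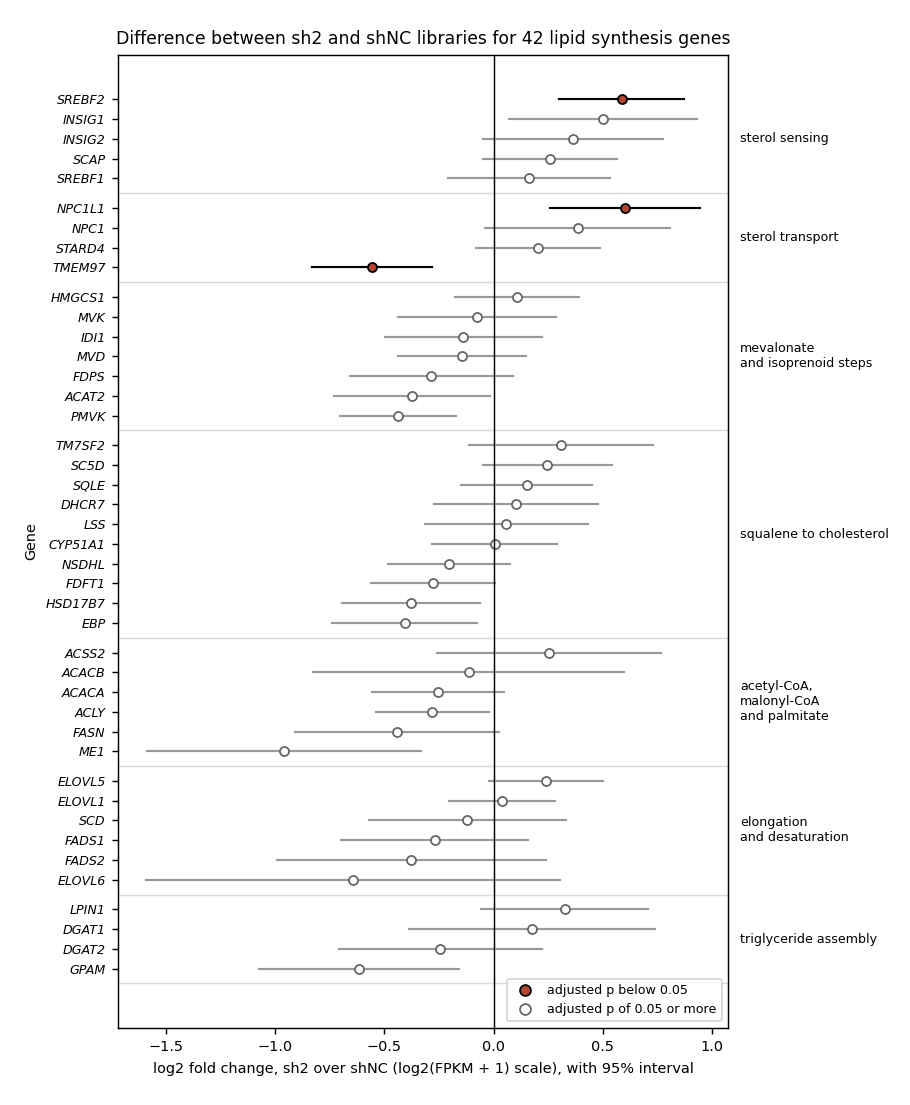
Points show the log2 fold change of each of the 42 genes, sh2 over shNC on the log2(FPKM + 1) scale, with 95% intervals from limma, ordered by role. Filled points mark SREBF2 and NPC1L1, to the right of 0, and TMEM97, to the left of 0, which passed an adjusted p of 0.05.

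These 3 calls depended on the libraries used. Each kept its sign when any 1 library was left out, and each lost the call without any single library other than knockdown replicate 1. Without knockdown replicate 1, 5 of 26 sterol genes passed (3 higher and 2 lower), against 3284 of 13408 genes tested. Without any other single library, 0 sterol genes passed, against 56 to 244 of all genes tested. The adjusted p over these 6 fits was between 0.00733 and 0.117 for SREBF2, between 0.0219 and 0.182 for NPC1L1 and between 0.00916 and 0.128 for TMEM97. Rescaling the libraries to their totals without mitochondrially encoded genes gave TMEM97 an adjusted p = 0.0603, and quantile normalization gave NPC1L1 an adjusted p = 0.0603.

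The upstream stretches of the 3 called genes are shown because SREBP proteins act at short elements near the start of sterol genes. Each is the 250 bases before the RefSeq start in GRCh38.p14, written 5′ to 3′ on the gene's strand. Capitals mark TCACNCCAC, a core of the sterol regulatory element, and CCAAT, the box bound by NF-Y, in either orientation (an opposite-strand CCAAT reads ATTGG).
SREBF2, chr22:41832855-41833104, plus strand: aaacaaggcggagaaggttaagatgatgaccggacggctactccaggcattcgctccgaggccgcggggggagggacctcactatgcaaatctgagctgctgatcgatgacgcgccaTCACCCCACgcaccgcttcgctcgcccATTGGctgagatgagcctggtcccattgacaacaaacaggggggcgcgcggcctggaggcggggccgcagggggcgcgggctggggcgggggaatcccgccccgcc
NPC1L1, chr7:44541331-44541580, minus strand: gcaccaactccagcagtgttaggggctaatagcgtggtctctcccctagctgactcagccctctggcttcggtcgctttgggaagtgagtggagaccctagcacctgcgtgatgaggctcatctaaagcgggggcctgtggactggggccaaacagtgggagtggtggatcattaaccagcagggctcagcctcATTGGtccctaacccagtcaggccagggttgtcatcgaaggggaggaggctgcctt
TMEM97, chr17:28318950-28319199, plus strand: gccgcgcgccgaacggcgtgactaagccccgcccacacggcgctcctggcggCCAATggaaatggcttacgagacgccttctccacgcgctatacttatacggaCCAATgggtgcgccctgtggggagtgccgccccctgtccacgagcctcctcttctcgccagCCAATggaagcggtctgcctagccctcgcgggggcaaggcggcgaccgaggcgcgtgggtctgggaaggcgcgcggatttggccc
The SREBF2 stretch held TCACNCCAC, beginning 133 bases before the start, and a CCAAT box beginning 106 bases before it. The TMEM97 stretch held 3 CCAAT boxes and the NPC1L1 stretch 1. TCACNCCAC occurred in 0.883% of 35116 such stretches over all genes, and in 1 of 50 stretches that matched 36 of the 42 genes by symbol. CCAAT occurred in 32.0% of all stretches and in 28 of those 50. GGGCGG, the GC box, which is not marked above, occurred in 42.6% of all stretches and in 42 of those 50. Some of the 50 overlap, as for ACLY and SC5D, so the same box can be counted again. A match of letters is not a measured binding site, and the 2 marked motifs do not overlap in the SREBF2 stretch.

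SREBF2, the gene of SREBP-2, was at 41.1, 50.5 and 44.8 FPKM in knockdown replicates 1, 2 and 3, against 30.2, 32.4 and 27.1 FPKM in control replicates 1, 2 and 3. Each knockdown library was above each control library. The means were 45.5 ± 4.74 and 29.9 ± 2.69 FPKM (SD, n = 3 each), and the log2 fold change was 0.59 (SE 0.13, limma adjusted p = 0.0320). SREBF1 was at 102.8, 122.5 and 108.3 FPKM in knockdown libraries, against 111.8, 112.8 and 76.72 FPKM in control libraries. Its groups overlapped, and it did not pass (0.16, 95% interval -0.21 to 0.53, limma adjusted p = 0.544). The ratio of SREBF2 to SREBF1 within a library was 0.3997, 0.4124 and 0.4136 in knockdown and 0.2703, 0.2875 and 0.3528 in control libraries. These ratios do not overlap, and an exact two-sided permutation test gave p = 0.1, the smallest that 3 against 3 libraries allow. Of the 3 ratios computed, all chosen after their values were seen, those of INSIG1 to INSIG2 and of NPC1L1 to NPC1 overlapped between the groups (exact permutation p = 1 and p = 0.2). Adjusted over the 3 ratios (Benjamini-Hochberg), the exact permutation p was 0.3 for SREBF2 to SREBF1, 1 for INSIG1 to INSIG2 and 0.3 for NPC1L1 to NPC1.

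The other 3 genes of sterol sensing did not pass the test. INSIG1, itself a target of SREBP, was at 45.8, 44.9 and 47.0 FPKM in knockdown libraries, against 39.2, 36.7 and 23.0 FPKM in control libraries. The groups were apart, with control replicate 3 far below the other controls, and the log2 fold change was 0.50 (SE 0.19, limma adjusted p = 0.125). Without control replicate 3 it was 0.27. INSIG2, a second retention protein, was at 11.9, 12.7 and 16.8 FPKM in knockdown libraries, against 9.31, 9.19 and 13 FPKM in control libraries. Control replicate 3 was the highest control for INSIG2, where it was the lowest for INSIG1. SCAP, the escort protein gene, was at 19.66, 23.43 and 26.21 FPKM in knockdown and 19.47, 18.04 and 19.62 FPKM in control libraries, and its lowest knockdown value lay just above the highest control value. All 5 sensing genes had a fold change above 0, with a median of 0.36.

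**Figure D2:**
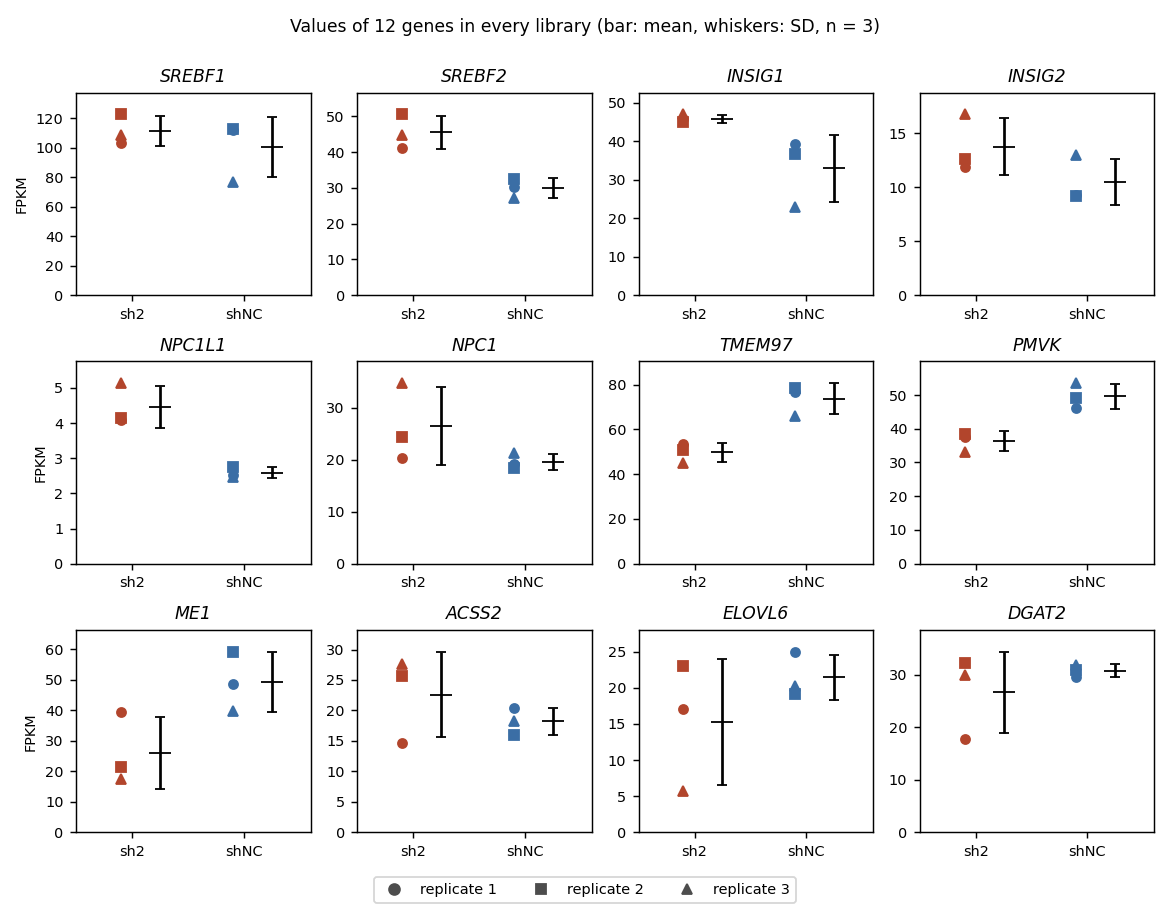
Each panel gives FPKM on a linear axis for 1 gene in knockdown (sh2, left) and control (shNC, right) libraries, with marker shapes for replicates and the mean ± SD (n = 3). SREBF2, INSIG1, NPC1L1, TMEM97, PMVK and, by a narrow margin, ME1 are fully apart. Knockdown replicate 1 is at the other end of its group from replicates 2 and 3 for ME1, ACSS2 and DGAT2.

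Genes of sterol transport went in both directions. NPC1L1, which encodes the cholesterol uptake transporter blocked by ezetimibe, was at 4.08, 4.15 and 5.14 FPKM in knockdown libraries, against 2.52, 2.76 and 2.47 FPKM in control libraries. The mean in knockdown libraries was 1.73 times that in control libraries, from a low level (log2 fold change 0.60, SE 0.15, limma adjusted p = 0.0466). NPC1, the lysosomal cholesterol exporter gene, was at 20.4, 24.3 and 34.8 FPKM in knockdown and 19.2, 18.3 and 21.3 FPKM in control libraries. The groups overlapped, since knockdown replicate 1 was below control replicate 3. NPC1 passed only in the fit without knockdown replicate 1 (0.55, limma adjusted p = 0.0371), where 3284 of 13408 genes tested passed. STARD4, a cytosolic sterol carrier gene, was at 13.3, 11.8 and 11.9 FPKM in knockdown and 11.2, 10.7 and 9.81 FPKM in control libraries, a small gap that did not pass the test (0.20, limma adjusted p = 0.312).

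TMEM97, which encodes the sigma-2 receptor, a binding partner of NPC1 and a known target of SREBP, fell. It was at 53.4, 50.9 and 45.1 FPKM in knockdown libraries, against 76.9, 78.6 and 65.8 FPKM in control libraries. The mean in knockdown libraries was 67.5% of that in control libraries, and no values overlapped (log2 fold change -0.56, SE 0.12, limma adjusted p = 0.0326). In GENCODE 29, 11.9% of its exon bases also lie in exons of IFT20 on the opposite strand, and no source used here states whether the authors' counting used strand. IFT20 averaged 81.0 ± 4.92 FPKM in knockdown and 76.2 ± 15.0 FPKM in control libraries (SD, n = 3 each).

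None of the 7 genes of the mevalonate and isoprenoid steps passed limma's test, and 2 of them had an unadjusted p below 0.05, against 29.3% of all genes tested. HMGCS1, which makes HMG-CoA, was at 378, 363 and 332 FPKM in knockdown libraries, against 335, 376 and 288 FPKM in control libraries. The groups overlapped, and the 95% interval of its log2 fold change was -0.18 to 0.39. MVK, mevalonate kinase, averaged 21.1 ± 2.52 FPKM in knockdown and 22.5 ± 3.91 FPKM in control libraries, and the difference was smaller than either SD.

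PMVK, the kinase of the following step, was at 37.4, 38.6 and 33.2 FPKM in knockdown libraries, against 46.2, 49.0 and 53.5 FPKM in control libraries. The groups did not overlap, and PMVK just missed the threshold (-0.44, SE 0.12, limma adjusted p = 0.0536). ACAT2, a cytosolic thiolase at the entry of the pathway, was at 78.2, 78.6 and 73.5 FPKM in knockdown libraries, against 122, 103 and 78.8 FPKM in control libraries. Its groups were apart by a narrow margin, since control replicate 3 lay next to the knockdown values (-0.37, limma adjusted p = 0.157). Exons of ACAT2 share bases with SOD2 and TCP1 on the opposite strand, so its reads are uncertain. TCP1 fell (-0.51, limma adjusted p = 0.0453), and SOD2 had a log2 fold change of 0.57 and did not pass (limma adjusted p = 0.162). The part of these neighbours in the ACAT2 values was not tested.

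MVD, the decarboxylase that makes isopentenyl diphosphate, averaged 67.6 ± 4.95 FPKM in knockdown and 75.2 ± 10.3 FPKM in control libraries. IDI1, the isomerase that acts on that product, averaged 66.8 ± 2.56 FPKM in knockdown and 74.7 ± 15.5 FPKM in control libraries. For both, the difference was smaller than the SD of the control libraries. FDPS, which makes farnesyl diphosphate and was the most abundant of the 42 genes, was at 451, 472 and 474 FPKM in knockdown libraries, against 714, 576 and 444 FPKM in control libraries. The knockdown values lay close together, and control replicate 3 was below all of them. FDPS has annotated pseudogenes, and those in the table were at 4.56 FPKM or less in each library. RUSC1-AS1 on the opposite strand covers 18.6% of its exon bases.

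None of the 10 genes from squalene to cholesterol passed limma's test, and 2 had an unadjusted p below 0.05, against 29.3% of all genes tested. FDFT1, squalene synthase, was at 108, 116 and 102 FPKM in knockdown libraries, against 147, 137 and 114 FPKM in control libraries, with only knockdown replicate 2 above control replicate 3. SQLE, squalene epoxidase, was at 56.8, 56.0 and 57.1 FPKM in knockdown libraries, against 57.9, 53.4 and 42.5 FPKM in control libraries. Its 3 knockdown values were nearly equal, and the controls spread on both sides of them. LSS, lanosterol synthase, averaged 25.5 ± 1.97 FPKM in knockdown and 24.7 ± 5.33 FPKM in control libraries. CYP51A1, the lanosterol demethylase, had the smallest difference of the 42 genes, with 65.3 ± 2.10 FPKM in knockdown and 65.5 ± 9.14 FPKM in control libraries and a 95% interval of the log2 fold change of -0.28 to 0.29. In GENCODE 29, 79.3% of its exon bases are shared with AC000120.2 on the same strand. AC000120.2 is not among the deposited genes under that name. How shared reads were counted is unknown, so the CYP51A1 values are uncertain. Of the 42 genes, 7 share at least 10% of their exon bases with another annotated gene.

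Among the genes that finish the sterol ring, EBP, the sterol isomerase, was second in abundance. It was at 381, 375 and 373 FPKM in knockdown libraries, against 610, 498 and 410 FPKM in control libraries. The groups were apart, and EBP did not pass (-0.41, SE 0.15, limma adjusted p = 0.110). HSD17B7, a sterol ketone reductase, was at 8.17, 7.81 and 6.77 FPKM in knockdown libraries, against 10.1, 11.2 and 9.19 FPKM in control libraries, again apart and not past the threshold (-0.38, limma adjusted p = 0.116). NSDHL, which acts with HSD17B7 in removal of methyl groups, averaged 24.0 ± 1.165 FPKM in knockdown and 27.9 ± 2.97 FPKM in control libraries, and its groups overlapped.

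The genes with higher knockdown means lay beside these in the same pathway. SC5D, a sterol desaturase, was at 26.6, 25.4 and 26.6 FPKM in knockdown libraries, against 24.0, 23.5 and 18.7 FPKM in control libraries. Its groups were apart and it did not pass (0.25, limma adjusted p = 0.248). TM7SF2, a sterol reductase, was at 11.6, 15.6 and 18.6 FPKM in knockdown and 12.8, 10.1 and 13.1 FPKM in control libraries, with knockdown replicate 1 among the controls. DHCR7, the reductase that makes cholesterol itself, averaged 86.5 ± 9.01 FPKM in knockdown and 81.4 ± 16.4 FPKM in control libraries.

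**Figure D3:**
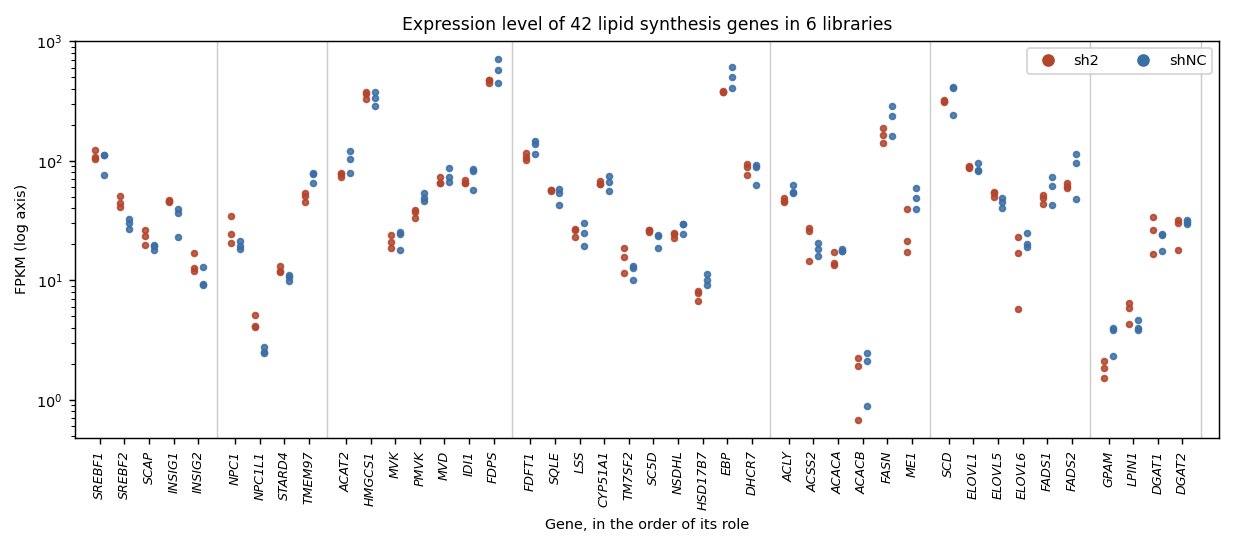
Each point is the FPKM of 1 gene in 1 library on a log axis, knockdown (sh2) left and control (shNC) right for each gene, with the 42 genes in the order of their roles. FDPS, EBP, HMGCS1 and SCD were the most abundant by mean FPKM over the 6 libraries, and ACACB and GPAM the least.

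None of the 6 genes that lead to palmitate passed limma's test, and 2 had an unadjusted p below 0.05, against 29.3% of all genes tested. ME1, the malic enzyme that supplies NADPH, had the lowest fold change of the 42 genes. It was at 39.3, 21.4 and 17.4 FPKM in knockdown libraries, against 48.7, 59.2 and 39.8 FPKM in control libraries. Knockdown replicate 1 lay just below control replicate 3 and the other knockdown libraries far below it, and ME1 missed the threshold (-0.96, SE 0.28, limma adjusted p = 0.0653). Without knockdown replicate 1, ME1 passed, with -1.29 and a limma adjusted p = 0.00225, among 3284 of 13408 genes tested. ACLY, which makes cytosolic acetyl-CoA from citrate, was at 46.3, 48.9 and 44.9 FPKM in knockdown and 53.5, 63.3 and 54.4 FPKM in control libraries. It was lower in each knockdown library and did not pass (-0.28, SE 0.11, limma adjusted p = 0.144).

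FASN, fatty acid synthase, was at 187, 166 and 140 FPKM in knockdown libraries, against 287, 235 and 162 FPKM in control libraries. The groups overlapped at control replicate 3, which was below knockdown replicates 1 and 2, and FASN did not pass (-0.44, SE 0.20, limma adjusted p = 0.189). ACACA, the acetyl-CoA carboxylase that makes malonyl-CoA for synthesis, was at 13.4, 17.4 and 13.9 FPKM in knockdown and 17.7, 17.6 and 18.4 FPKM in control libraries. Its knockdown values all lay below the control values, knockdown replicate 2 by little (limma adjusted p = 0.241). ACACB, the mitochondrial form that restrains fatty acid oxidation, was the least abundant, with 1.62 ± 0.83 FPKM in knockdown and 1.82 ± 0.82 FPKM in control libraries. ACSS2, which makes acetyl-CoA from acetate, was at 14.6, 25.7 and 27.6 FPKM in knockdown and 20.4, 16.0 and 18.3 FPKM in control libraries. Knockdown replicate 1 was the lowest of all 6 libraries and replicates 2 and 3 the highest. Without replicate 1 ACSS2 passed (0.53, limma adjusted p = 0.0225), in the fit where 3284 of 13408 genes tested passed.

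None of the 6 genes of elongation and desaturation passed limma's test, and 0 of them had an unadjusted p below 0.05, against 29.3% of all genes tested. SCD, the desaturase that makes oleate, was at 313, 321 and 315 FPKM in knockdown libraries, against 418, 406 and 241 FPKM in control libraries. All knockdown values lay inside the range of the controls. FADS2 and FADS1, desaturases of polyunsaturated fatty acids, had the same order. FADS2 was at 61.0, 65.5 and 58.8 FPKM in knockdown and 113, 95.3 and 48.2 FPKM in control libraries, and FADS1 averaged 48.0 ± 4.03 FPKM in knockdown and 59.4 ± 15.4 FPKM in control libraries. For both, control replicate 3 was below each knockdown library. Without control replicate 3 the log2 fold change of FADS2 was -0.74 (limma adjusted p = 0.0482), against -0.38 (adjusted p = 0.392) with all libraries.

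The elongase genes did not pass limma's test, and differences between them were not tested. ELOVL5, which extends polyunsaturated fatty acids, was at 55.1, 53.4 and 49.8 FPKM in knockdown and 40.6, 48.4 and 44.8 FPKM in control libraries. It was higher in each knockdown library and did not pass (0.24, SE 0.11, limma adjusted p = 0.199). ELOVL6, which extends palmitate, was at 17.08, 22.96 and 5.72 FPKM in knockdown and 24.99, 19.16 and 20.21 FPKM in control libraries. Knockdown replicate 3 stood alone at the low end, which gave ELOVL6 the widest interval of the 42 genes (-1.59 to 0.30). Its log2 fold change was -0.64 with all libraries and -0.10 without that library. ELOVL1, an elongase of very long chains, averaged 89.0 ± 2.29 FPKM in knockdown and 86.8 ± 7.45 FPKM in control libraries.

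None of the 4 genes of triglyceride assembly passed limma's test, and 1 had an unadjusted p below 0.05, against 29.3% of all genes tested. GPAM, the mitochondrial acyltransferase of the opening step, was at 1.85, 2.12 and 1.53 FPKM in knockdown libraries, against 3.99, 3.87 and 2.34 FPKM in control libraries. The groups were apart, at a low level where the pseudocount shrinks the change (log2 fold change -0.62, SE 0.20, limma adjusted p = 0.0881). LPIN1, a phosphatidate phosphatase, was at 4.32, 6.41 and 5.84 FPKM in knockdown and 4.01, 4.63 and 3.86 FPKM in control libraries, with knockdown replicate 1 among the controls. DGAT1 and DGAT2 catalyse the last step. DGAT1 was at 16.6, 26.5 and 34.2 FPKM in knockdown and 24.3, 17.5 and 24.1 FPKM in control libraries. DGAT2 was at 17.8, 32.2 and 29.9 FPKM in knockdown and 29.6, 31.0 and 31.9 FPKM in control libraries. For both, knockdown replicate 1 was the lowest of all 6 libraries.

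Control replicate 3 stood apart from the other controls across these genes, a pattern chosen for description after the values were seen. It was the lowest of the 3 controls for 21 of 26 sterol genes (80.8%) and 9 of 16 fatty acid and triglyceride genes (56.3%), against 27.2% of all genes tested. It was the lowest of all 6 libraries for 14 sterol genes (53.8%), against 10.0% of all genes tested. Its median log2 difference from the mean of the other 2 controls was -0.31 for the sterol genes, -0.13 for the fatty acid and triglyceride genes and 0.02 for all genes tested. The largest such difference was that of FADS2, at -1.09. For sterol genes the knockdown libraries were closer to one another: the SD of log2 values was smaller in knockdown than in control libraries for 20 of 26 (76.9%), against 42.3% of all genes tested. For fatty acid and triglyceride genes it was smaller for 8 of 16 (50%). In the genes that lead to palmitate the median SD was larger in knockdown (0.34) than in control libraries (0.22), and likewise in those of triglyceride assembly (0.35 and 0.19). In the genes of elongation and desaturation the median SD was smaller in knockdown (0.076) than in control libraries (0.29).

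The place of the sterol genes relative to 0 turned on that library. Of the 26 sterol genes, 15 had a fold change above 0 with all libraries and 11 without control replicate 3, and the median log2 fold change was 0.08 and -0.09. The fatty acid and triglyceride genes had medians of -0.25 with all libraries and -0.35 without it, with 11 and 12 of 16 below 0. Summed FPKM of the 26 sterol genes was 2191, 2265 and 2191 in knockdown and 2811, 2558 and 2033 in control libraries, so that the knockdown libraries lay between control replicate 3 and the other controls. Summed FPKM of the 16 fatty acid and triglyceride genes was 931, 950 and 877 in knockdown and 1245, 1177 and 835 in control libraries, in the same order. Whether the sterol and fatty acid genes differ from each other in their response was not tested.

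**Figure D4:**
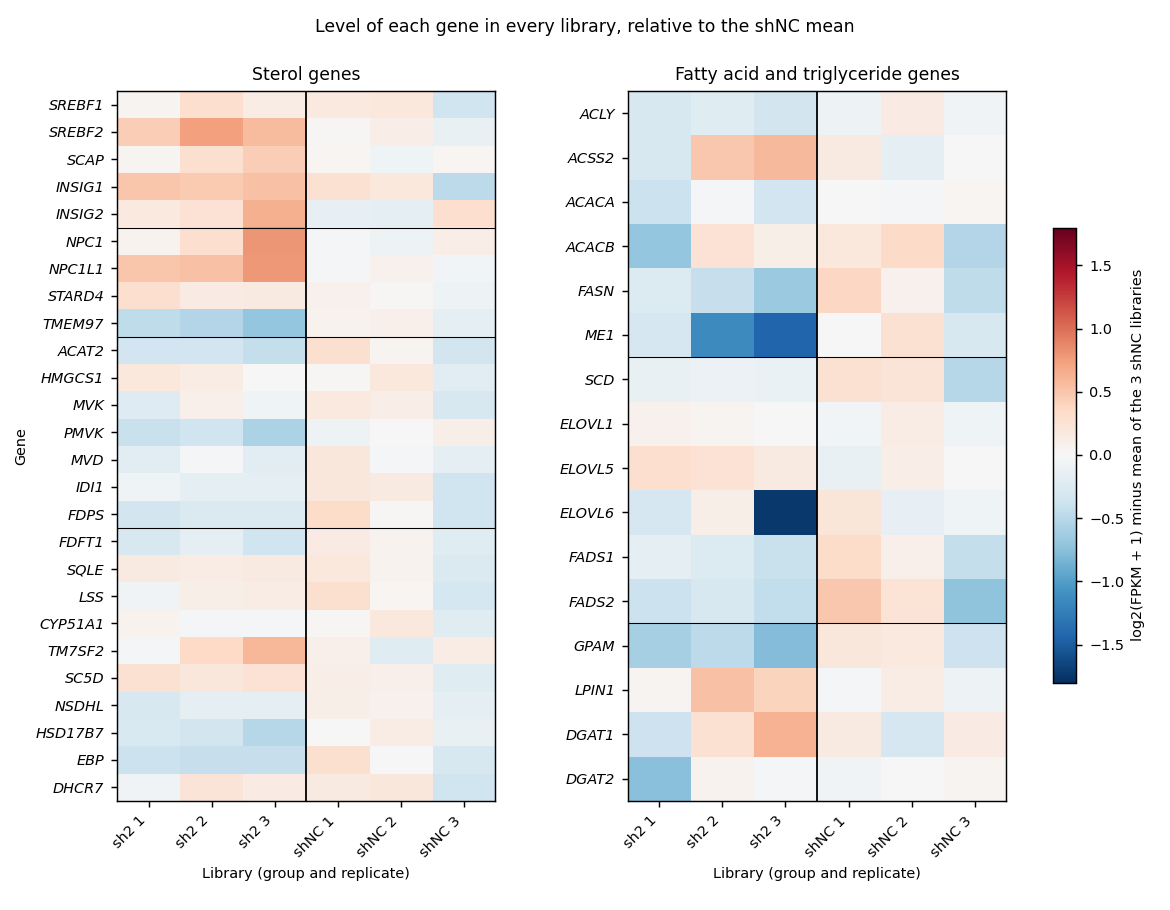
Colour gives log2(FPKM + 1) of each gene in each library minus the mean of the 3 control libraries, red higher and blue lower, with sterol genes left, fatty acid and triglyceride genes right and lines between roles. The column of control replicate 3 (shNC 3) is blue for most genes, and SREBF2 and NPC1L1 are red and TMEM97 is blue in the 3 knockdown columns.

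Other genes of lipid metabolism were taken from lists written by pathway, chosen with earlier results of these data known. Of 103 such genes tested in 7 lists, 6 rose and 2 fell, which is 7.77% against the background of 8.08%. Without any 1 of knockdown replicates 2 and 3 and the controls, 0 to 2 of these genes passed, against 56 to 244 of all genes tested. Without knockdown replicate 1, 28 of 103 passed, against 3284 of 13408 genes tested. MID1IP1, an activator of acetyl-CoA carboxylase, did not pass (-0.52, limma adjusted p = 0.0518), and its groups did not overlap.

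HADH, a dehydrogenase of fatty acid oxidation, was lower in each knockdown library and did not pass (-0.44, limma adjusted p = 0.0557). Of 13 genes of cholesterol esterification, efflux and LXR tested, NCEH1 rose and 0 fell (7.69% called, against 8.08% of all genes tested). NCEH1, a cholesteryl ester hydrolase, was at 17.9, 23.3 and 25.9 FPKM in knockdown and 9.42, 13.6 and 15.3 FPKM in control libraries (0.77, limma adjusted p = 0.04997). NR1H3, which encodes the oxysterol receptor LXR alpha, did not pass (-0.33, limma adjusted p = 0.135).

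Of 15 other genes of triglyceride and phospholipid assembly tested, 0 passed limma's test and 3 had an unadjusted p below 0.05, against 29.3% of all genes tested. AGPAT1, an acyltransferase that makes phosphatidate, and PCYT2, of phosphatidylethanolamine synthesis, had the smallest p (-0.39 and -0.42, limma adjusted p = 0.0762 and 0.0833). Of 13 other post-squalene and isoprenoid enzymes tested, 0 passed limma's test and 3 had an unadjusted p below 0.05, against 29.3% of all genes tested. PDSS2 and RABGGTA, of ubiquinone side chain synthesis and of RAB prenylation, had the smallest p (-0.40 and 0.37, limma adjusted p = 0.148 and 0.155).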

How the data were processed

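Per the labels' protocols, RNA was harvested in Trizol, and sequencing libraries came from a TruSeq kit. The authors deposited 1 table of 23344 human Ensembl genes with 6 library columns. Its values were treated as FPKM made by the authors, since they are not whole and each library has its own total (922125 to 975501 in sh2, 851418 to 947769 in shNC), although the deposited file does not name one. TPM over part of the genes would look alike. With no role for each, the submitters' processing notes list RSEM 1.1.17, Bowtie2 2.2.6, DESeq2 1.16.1, edgeR 3.18.1, Trimmomatic 0.36 and bcl2fastq 2.19.0. They also list the mouse build mm10, while the IDs are human, so no coordinates were taken from the table. Read totals are unknown, so no counting intervals were computed.

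Groups and replicate numbers came from the titles. Genes with at least 1 FPKM in at least 3 libraries were kept, 1 was added, and log2 values were tested across all 13696 genes with limma 3.58.1 in R 4.3.3 (mean-variance trend, robust, two-sided, Benjamini-Hochberg adjustment, 95% intervals), after a run on simulated data with known changes. The 42 genes and the other lists were chosen with earlier results of these data known. All 42 are named, and from each other list the genes past the threshold, at most 4, or the 2 with the smallest p where fewer than 2 passed; some of these are not reported here. Alternatives were a pseudocount of 0.1, no filter, quantile normalization, rescaling by library totals that leave out 13 mitochondrially encoded genes, a replicate block and leaving out each library. Overlapping exons and annotated copies came from GENCODE 29, and upstream sequences from RefSeq (GRCh38.p14).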

Additional observations from a re-analysis of the deposited data

How the results depend on the processing

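The number of sterol genes called (3) was 0 with no filter on low values. In that fit 23339 genes shared the adjustment, against 13696 with the filter. The unadjusted limma p also changed, for SREBF2 from 0.00132 with the filter to 0.00188 without it. The number of other lipid genes called (8) was 0 and of all genes (1107) 221 in the fit with no filter. When single libraries were left out, sterol calls ranged from 0 to 5, fatty acid and triglyceride calls from 0 to 2 (ACSS2 and ME1 without knockdown replicate 1, FADS2 without control replicate 3), other lipid calls from 0 to 28 and calls over all genes from 56 to 3284. The sterol median ranged from -0.088 to 0.15 and the fatty acid and triglyceride median from -0.35 to -0.12. After rescaling without mitochondrially encoded genes these were 0.19 (0.08 without it) and -0.15 (-0.25 without it). The median of the other lipid genes was -0.02 and 0.091 after that rescaling, and -0.05 to 0.03 when single libraries were left out. VCAN ranged from -1.56 to -1.23, with the call lost without control replicate 2. After rescaling without mitochondrially encoded genes, the calls over all genes tested split into 680 higher and 223 lower, against 568 and 539 without the rescaling.

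Signs turned for 10 of 42 genes, each without a call. MVK had 0.030 after the rescaling and SCD 0.032 with quantile normalization. When single libraries were left out, the range was -0.018 to 0.26 for SREBF1, -0.22 to 0.011 for MVK, -0.10 to 0.20 for LSS, -0.10 to 0.098 for CYP51A1, -0.075 to 0.20 for DHCR7, -0.38 to 0.18 for ACACB, -0.38 to 0.019 for SCD, -0.0025 to 0.11 for ELOVL1, -0.049 to 0.45 for DGAT1 and -0.40 to 0.011 for DGAT2. Their causes were not tested.

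Same-numbered libraries of the 2 groups deviated together only weakly (correlations of 0.053, 0.105 and 0.135 over genes), so the numbers were not taken as pairs. With the replicate block, 2 sterol genes (1 higher, 1 lower), 0 fatty acid and triglyceride genes, 7 other lipid genes and 861 of all genes passed. NPC1L1 was the sterol call lost (limma adjusted p = 0.0737). Of the 3 knockdown libraries, 2 correlated best with the control library of their own number.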

Other observations

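Genes of lipid droplets and bile acid synthesis, in lists already counted among the other lipid genes above, held 5 of the 8 other lipid genes called. These lists had the highest shares called among the other lipid lists, which together had 7.77% called. All lists were chosen with earlier results of these data known, so a share above the background in either list is not an independent result. Of 12 lipid droplet and lipolysis genes tested, 2 rose and 0 fell (16.7% called, against 8.08% of all genes tested), with a median log2 fold change of 0.49 against -0.03 for all genes tested. PNPLA2, which encodes adipose triglyceride lipase, was at 61.1, 80.7 and 89.9 FPKM in knockdown and 45.7, 40.4 and 41.5 FPKM in control libraries (0.83, SE 0.15, limma adjusted p = 0.0217). CIDEC, a lipid droplet fusion gene, was at 3.41, 5.52 and 6.28 FPKM in knockdown and 1.35, 1.98 and 2.63 FPKM in control libraries (1.01, SE 0.24, limma adjusted p = 0.0396). PLIN2, a droplet coat gene named after its values were seen, was at 129, 195 and 214 FPKM in knockdown and 119, 103 and 117 FPKM in control libraries and did not pass (limma adjusted p = 0.0671). With single libraries left out, the calls in these lists were lost in part or whole in every fit that dropped a library other than knockdown replicate 1, as for the other lipid genes.

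Of 11 bile acid synthesis genes tested, 2 rose and 1 fell (27.3% called, against 8.08% of all genes tested). BAAT, which joins bile acids to glycine or taurine, was at 4.52, 11.4 and 13.7 FPKM in knockdown and 1.21, 0.97 and 2.33 FPKM in control libraries (2.04, SE 0.36, limma adjusted p = 0.0198). AKR1D1, a steroid reductase of the pathway, was at 2.23, 6.02 and 8.30 FPKM in knockdown and 0.88, 0.72 and 1.26 FPKM in control libraries (1.62, SE 0.35, limma adjusted p = 0.0326). NR1H4, the bile acid receptor gene, was at 6.88, 4.32 and 2.80 FPKM in knockdown and 10.96, 17.94 and 13.93 FPKM in control libraries (-1.47, SE 0.27, limma adjusted p = 0.0220). For each of these 3 genes and for PNPLA2, knockdown replicate 1 was the nearest of its group to the controls.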
